A study of Mus musculus with 24 samples.

Results

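The corticosteroid receptor genes Nr3c1 and Nr3c2 and 7 genes known to be induced by glucocorticoids (Fkbp5, Sgk1, Tsc22d3, Ddit4, Nfkbia, Cdkn1a and Fam107a) were followed in mouse dorsal hippocampus. They were picked by gene name, with earlier results of these data known. All 9 are among the 19661 genes of the deposited expression table, each on 1 line. RNA from both dorsal hippocampi of 24 mice had been sequenced, with 6 animals in each of 4 groups. The wild-type groups carried the strain C57BL/6J, and the heterozygous groups were labelled Baf53b+/- mutant on B6J.129S6-Actl6b<tm1Grc>, so strain background and genotype cannot be told apart. Actl6b encodes BAF53b, a subunit that neurons use in their BAF chromatin remodelling complex, and its allele was carried by all cells of the mutants rather than by a chosen cell type. Within each genotype, 6 animals were taken from the home cage and 6 were killed 30 minutes after Object Location Memory training, a task in which a mouse learns where objects stand. Home cage animals were the only controls, so handling, a new arena and learning cannot be told apart; the sources used here do not give ages. The comparisons asked which genes answered to the training and whether the answer differed between genotypes.

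Glucocorticoids, corticosterone in mice, rise in blood with the daily rhythm and with arousal or stress, and act in the brain through a pair of nuclear receptors. The mineralocorticoid receptor, encoded by Nr3c2, binds corticosterone tightly and is known for its high level in the hippocampus, whereas the glucocorticoid receptor, encoded by Nr3c1, binds it less tightly and is engaged as the hormone rises. Both leave their chaperones on binding hormone, enter the nucleus and act on DNA elements built of an inverted repeat of a hexamer, the glucocorticoid response element. Several genes on the list also answer to other signals: Nfkbia to NF-kB, Cdkn1a to p53, and Ddit4 to cell stress.

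The promoters of 4 of the genes are shown because they differ in whether they hold that element. RefSeq promoter windows on GRCm38.p6, each of 300 bases from 250 before to 50 after a start site, matched 8 of the 9 genes in 18 windows; Nr3c1 had no entry. The windows were searched on both strands for the full element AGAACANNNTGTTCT, for a shorter form of it, GNACANNNTGTNC, which the full element contains, and for the NF-kB consensus of 10 letters. Capitals mark the full element in Sgk1, the NF-kB consensus and a TATAAA match, both on the other strand, in Nfkbia, and the NF-kB consensus followed by the shorter form in Fam107a. Ddit4 held none of the motifs searched, and single hexamers are not in capitals.

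Sgk1, chr10:21993640-21993939, plus strand: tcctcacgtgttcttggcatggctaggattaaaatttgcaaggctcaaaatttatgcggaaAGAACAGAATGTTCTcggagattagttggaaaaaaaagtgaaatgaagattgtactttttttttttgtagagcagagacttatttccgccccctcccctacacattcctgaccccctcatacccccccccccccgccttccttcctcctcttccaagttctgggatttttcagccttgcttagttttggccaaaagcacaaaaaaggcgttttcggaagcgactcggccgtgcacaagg
Nfkbia, chr12:55492598-55492897, minus strand: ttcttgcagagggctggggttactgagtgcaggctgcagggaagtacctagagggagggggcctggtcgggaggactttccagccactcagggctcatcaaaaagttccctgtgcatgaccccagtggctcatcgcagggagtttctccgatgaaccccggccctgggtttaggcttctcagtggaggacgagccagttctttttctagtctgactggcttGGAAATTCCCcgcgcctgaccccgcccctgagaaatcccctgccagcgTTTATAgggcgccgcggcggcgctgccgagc
Fam107a, chr14:8309730-8310029, minus strand: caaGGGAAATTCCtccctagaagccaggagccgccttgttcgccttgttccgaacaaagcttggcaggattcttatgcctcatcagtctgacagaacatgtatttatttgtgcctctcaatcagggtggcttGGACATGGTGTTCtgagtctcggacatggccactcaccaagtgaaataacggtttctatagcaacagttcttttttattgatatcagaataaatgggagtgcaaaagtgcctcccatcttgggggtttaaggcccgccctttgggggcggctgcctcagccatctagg
Ddit4, chr10:59951721-59952020, minus strand: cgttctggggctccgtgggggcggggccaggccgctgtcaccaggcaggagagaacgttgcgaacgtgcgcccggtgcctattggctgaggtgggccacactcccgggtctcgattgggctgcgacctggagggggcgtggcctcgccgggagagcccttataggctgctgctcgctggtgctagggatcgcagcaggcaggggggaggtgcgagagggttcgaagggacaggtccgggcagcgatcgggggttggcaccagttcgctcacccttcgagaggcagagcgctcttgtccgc

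The full element lies from -189 to -175 in 1 of the 6 Sgk1 windows, and the other 5 Sgk1 windows lack it. It occurred in 3 of all 32851 RefSeq promoter windows (0.00913%). The shorter form in Fam107a lies from -118 to -106 and was found in 0.475% of windows. The NF-kB match lies from -29 to -20 in Nfkbia and from -247 to -238 in Fam107a, and 4.51% of windows held such a match. The single hexamer AGAACA was present in 19.0% of windows and in 6 of the 18 windows of these genes, which belong to 3 genes. Among those 6, the Fam107a windows from 8309730 and from 8309728 overlap almost fully and hold the same matches. The 6 are thus not separate promoters. No window of these genes held the cyclic AMP element TGACGTCA or the AP-1 element TGANTCA, which occurred in 1.79% and 7.81% of all windows. TATAAA was present in 13.6% of windows and TGACG in 20.8%, and each was found in 3 of the 18. A match describes letters, and the deposited values are 1 per gene, so they do not tell the 6 Sgk1 starts apart.

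The libraries were checked before the genes were compared. RPKM counts reads scaled to transcript length and to the library's mapped reads, and depth recovered from the values ran from 28.4 to 47.0 M reads (median 34.5 M). In the home cage Actl6b stood at 51.3 ± 1.26 RPKM in wild type and at 30.0 ± 1.44 RPKM in heterozygotes, and at 50.8 ± 2.65 and 28.3 ± 1.47 RPKM after training (SD, n = 6 each). The neuronal activity gene Fos rose from 1.89 ± 0.687 to 14.3 ± 4.58 RPKM in wild type and from 1.86 ± 0.44 to 12.6 ± 1.67 RPKM in heterozygotes, so both labels matched their genes. In 6 libraries Ttr, the leading transcript of choroid plexus, was at 1213 RPKM or more, against at most 288 RPKM in the other 18. These were 1 wild-type home cage, 1 wild-type trained, 2 heterozygous home cage and 2 heterozygous trained animals, and results are also given without them. Sex, read from Xist and Ddx3y, was 3 females and 3 males in every group except heterozygous home cage, with 1 female and 5 males. Astrocyte, neuron and dentate gyrus markers were detected.

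The 9 genes differed widely in level. Fam107a, which encodes an actin-associated protein, averaged 142 ± 16.6 RPKM (SD over 24 animals) and exceeded 97.9% of tested genes. Nr3c2 followed at 52.9 ± 5.48 RPKM. A middle set ran from Ddit4 at 22.1 ± 3.92 RPKM through Fkbp5 at 18.6 ± 1.43, Sgk1 at 17.5 ± 4.40, Nr3c1 at 16.6 ± 0.853 and Tsc22d3 at 16.0 ± 2.77 to Nfkbia at 12.4 ± 2.03 RPKM. Cdkn1a was lowest at 2.96 ± 0.662 RPKM, above 18.6% of tested genes, and 69.2 to 152 reads per kilobase lay behind its values. Ranges did not overlap between Fam107a and Nr3c2, between Nr3c2 and Ddit4, or between Nfkbia and Cdkn1a. Inside the middle set they overlapped: Ddit4 exceeded Fkbp5 in 19 of 24 animals, Fkbp5 exceeded Sgk1 in 17, and Sgk1 exceeded Nr3c1 in 14. The spread over animals was narrowest relative to the level for Nr3c1 and widest for Sgk1.

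**Figure D1:**
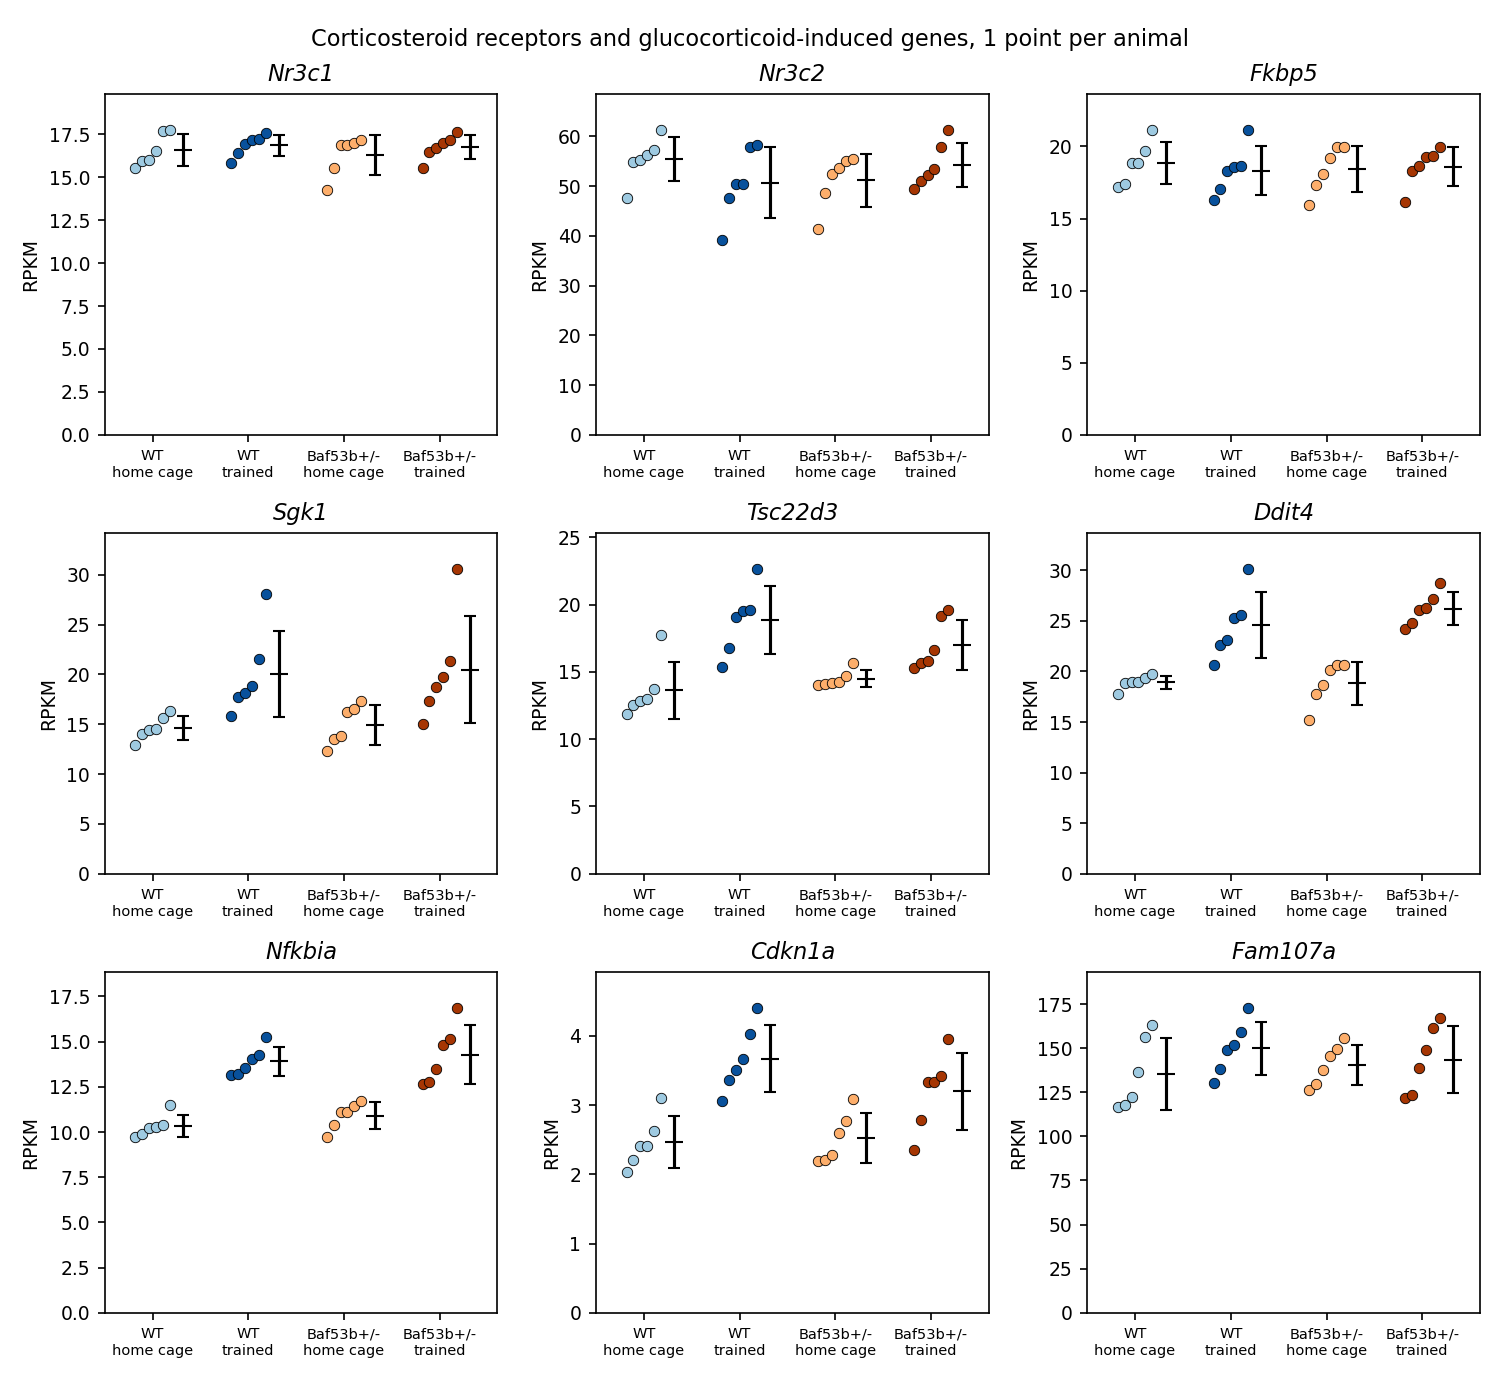
RPKM (vertical axis, from 0) of the 9 genes in the 4 groups (horizontal axis), with 1 point per animal and the mean and SD of 6 animals beside each group. Trained animals sit above home cage animals of the same genotype for Ddit4 and Nfkbia with no overlap, while Nr3c1, Nr3c2 and Fkbp5 overlap throughout.

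Neither receptor changed past the test after training. Nr3c1 (mm9 chr18:39570199-39646899) ran from 15.5 to 17.7 RPKM with a median of 16.3 in wild-type home cage animals, and from 15.8 to 17.6 RPKM with a median of 17.0 after training. In heterozygotes it ran from 14.3 to 17.2 RPKM (median 16.9) in the home cage and from 15.5 to 17.6 RPKM (median 16.9) after training. The groups overlapped almost entirely. The difference between trained and home cage animals, averaged over genotypes, was 0.033 ± 0.031 (SE) on the log2(RPKM + 0.5) scale, on which all differences below are given, with a 95% interval from -0.031 to 0.097 and a limma adjusted p of 0.665.

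Nr3c2 (mm9 chr8:79426407-79767538) ran from 47.6 to 61.2 RPKM with a median of 55.8 in wild-type home cage animals, and from 39.2 to 58.4 RPKM with a median of 50.5 after training. Heterozygotes ran from 41.4 to 55.4 RPKM (median 53.1) in the home cage and from 49.4 to 61.3 RPKM (median 52.8) after training. The groups overlapped in both genotypes, and the direction of the means differed between them. The difference was -0.14 (95% interval -0.31 to 0.039) in wild type and 0.086 (-0.088 to 0.26) in heterozygotes, with limma adjusted p of 0.584 and 0.763. In each of the 4 groups the animal with the lowest Nr3c2 was also the one with the lowest summed RPKM of 9 dentate gyrus markers, at 128 RPKM in wild-type home cage, 113 in wild-type trained, 84.9 in heterozygous home cage and 144 in heterozygous trained animals. The group medians of that sum lay between 164 and 183 RPKM. Fkbp5 was lowest in the same 4 animals. With the dentate gyrus sum as a covariate, added after the values were seen, the Nr3c2 difference was -0.074 in wild type and 0.0061 in heterozygotes. In bulk tissue, fewer cells of a type and less RNA per cell cannot be told apart.

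The ratio of Nr3c2 to Nr3c1, both in RPKM, was 3.35 ± 0.267 in wild-type home cage, 3.01 ± 0.451 in wild-type trained, 3.13 ± 0.137 in heterozygous home cage and 3.24 ± 0.36 in heterozygous trained animals (SD, n = 6 each). The mineralocorticoid receptor transcript was thus the more abundant of the pair in every group, with the lowest animal at 2.32.

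Among the induced genes, Nfkbia, Ddit4, Tsc22d3 and Cdkn1a rose in wild type 30 minutes after training, and Nfkbia and Ddit4 rose in heterozygotes. That is 4 of the 9 genes in wild type, where 0.960% of all tested genes rose, and 2 of 9 in heterozygotes, where 0.887% rose. Because the 9 genes were chosen with earlier results of these data known, such shares describe the set and are no test of enrichment. None of the 9 fell in either genotype, against 0.121% and 0.145% of all genes. Averaged over genotypes, 5 of 9 rose, with Sgk1 added, against 3.26% of all genes, and none fell against 0.911%. Of all genes called in that average, 78.1% were higher, and 62.7% under quantile normalization. In wild type alone these shares were 88.8% and 78.5%. The median difference of the 9 genes was 0.36 in wild type, 0.22 in heterozygotes and 0.34 in the average, while the median over all tested genes was 0.011, -0.0014 and 0.0036.

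Nfkbia (mm9 chr12:56590396-56593634) encodes IkB-alpha, which holds NF-kB in the cytoplasm. It ran from 9.74 to 11.5 RPKM with a median of 10.3 in wild-type home cage animals, and from 13.2 to 15.2 RPKM with a median of 13.8 after training. The heterozygous values ran from 9.71 to 11.7 RPKM (median 11.1) in the home cage and from 12.6 to 16.9 RPKM (median 14.1) after training. The highest home cage animal was below the lowest trained one in each genotype. Groups without overlap, in either direction, were seen in 1.24% of all tested genes in wild type and 1.33% in heterozygotes. The mean rose 1.35-fold in wild type and 1.31-fold in heterozygotes, with log2 differences of 0.41 ± 0.06 (limma adjusted p = 0.000151) and 0.37 ± 0.06 (limma adjusted p = 0.000905). The average over genotypes was 0.39 ± 0.04 (limma adjusted p = 8.43e-07), the lowest p of the 9.

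Ddit4 (mm9 chr10:59412423-59414518) encodes REDD1, an inhibitor of mTORC1 signalling. It ran from 17.8 to 19.7 RPKM with a median of 19.0 in wild-type home cage animals, and from 20.6 to 30.1 RPKM with a median of 24.2 after training. In heterozygotes it ran from 15.2 to 20.7 RPKM (median 19.4) in the home cage and from 24.2 to 28.7 RPKM (median 26.2) after training. The trained and home cage animals did not overlap in either genotype. The mean rose 1.30-fold in wild type and 1.39-fold in heterozygotes, with log2 differences of 0.36 ± 0.07 (limma adjusted p = 0.0104) and 0.47 ± 0.07 (limma adjusted p = 0.000593).

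Tsc22d3 (mm9 chrX:137074068-137135061) encodes GILZ, a leucine zipper protein that mediates anti-inflammatory glucocorticoid actions. It ran from 11.8 to 17.8 RPKM with a median of 12.9 in wild-type home cage animals, and from 15.4 to 22.6 RPKM with a median of 19.3 after training. Heterozygotes ran from 14.0 to 15.7 RPKM (median 14.2) in the home cage and from 15.3 to 19.6 RPKM (median 16.2) after training. In wild type the groups overlapped through animal 2418 of the home cage group, at 17.8 RPKM, which lay above 2 trained animals. The mean rose 1.38-fold in wild type, a log2 difference of 0.46 ± 0.09 (limma adjusted p = 0.00582), and the heterozygote difference was 0.22 ± 0.09 (limma adjusted p = 0.323). Over both genotypes it was 0.34 ± 0.06 (limma adjusted p = 0.00125).

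Cdkn1a (mm9 chr17:29227931-29237667) encodes p21, an inhibitor of cyclin-dependent kinases. It ran from 2.03 to 3.10 RPKM with a median of 2.41 in wild-type home cage animals, and from 3.07 to 4.40 RPKM with a median of 3.59 after training. The heterozygous values ran from 2.19 to 3.08 RPKM (median 2.44) in the home cage and from 2.35 to 3.95 RPKM (median 3.34) after training. In wild type, 5 of 6 trained animals lay above every home cage animal, and in heterozygotes 4 of 6 did. The log2 difference was 0.50 ± 0.10 in wild type (limma adjusted p = 0.0109), 0.29 ± 0.10 in heterozygotes (limma adjusted p = 0.262) and 0.39 ± 0.07 over both (limma adjusted p = 0.0013).

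Sgk1 (mm9 chr10:21601990-21719708) encodes a kinase that acts on ion channels and transporters. It ran from 12.9 to 16.4 RPKM with a median of 14.5 in wild-type home cage animals, and from 15.8 to 28.0 RPKM with a median of 18.5 after training. In heterozygotes it ran from 12.3 to 17.3 RPKM (median 14.998) in the home cage and from 15.03 to 30.6 RPKM (median 19.2) after training. In each genotype 5 of 6 trained animals exceeded every home cage animal, and 1 trained animal stood far above the rest, animal 2436 at 28.0 RPKM and animal 2409 at 30.6 RPKM. The means differed 1.37-fold in both genotypes, and the unadjusted exact permutation p was 0.00433 in wild type and 0.0173 in heterozygotes. With that spread, the log2 difference of 0.42 ± 0.14 passed the test in neither genotype alone (limma adjusted p = 0.18 in wild type and 0.204 in heterozygotes), and rose over both genotypes by 0.42 ± 0.10 (limma adjusted p = 0.0122).

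The calls were tested again with the 6 Ttr-rich libraries set aside. That step also leaves fewer animals, which weakens any test, and no removal of 6 other animals was made for comparison. The part of choroid plexus content in a loss of calls was thus not tested apart from sample size. With these 6 set aside, calls over all genes fell from 134 to 65 in wild type, from 128 to 52 in heterozygotes and from 517 to 262 in the average. In that fit wild type had 1 of the 9 genes called, Nfkbia at 0.42 (limma adjusted p = 0.000141). Ddit4, Cdkn1a and Tsc22d3 stood at 0.38, 0.50 and 0.45 (limma adjusted p = 0.0548, 0.0573 and 0.0608), so their differences were as large as before. In heterozygotes Ddit4 and Nfkbia stayed called at 0.45 and 0.27 (limma adjusted p = 0.0436 for both). Over both genotypes 4 genes stayed called, and Sgk1 stood at 0.37 (limma adjusted p = 0.0523). When all 24 animals were kept and a choroid plexus score entered the model, the calls among the 9 genes numbered 4, 2 and 5 as before, beside 140, 127 and 573 over all genes.

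**Figure D2:**
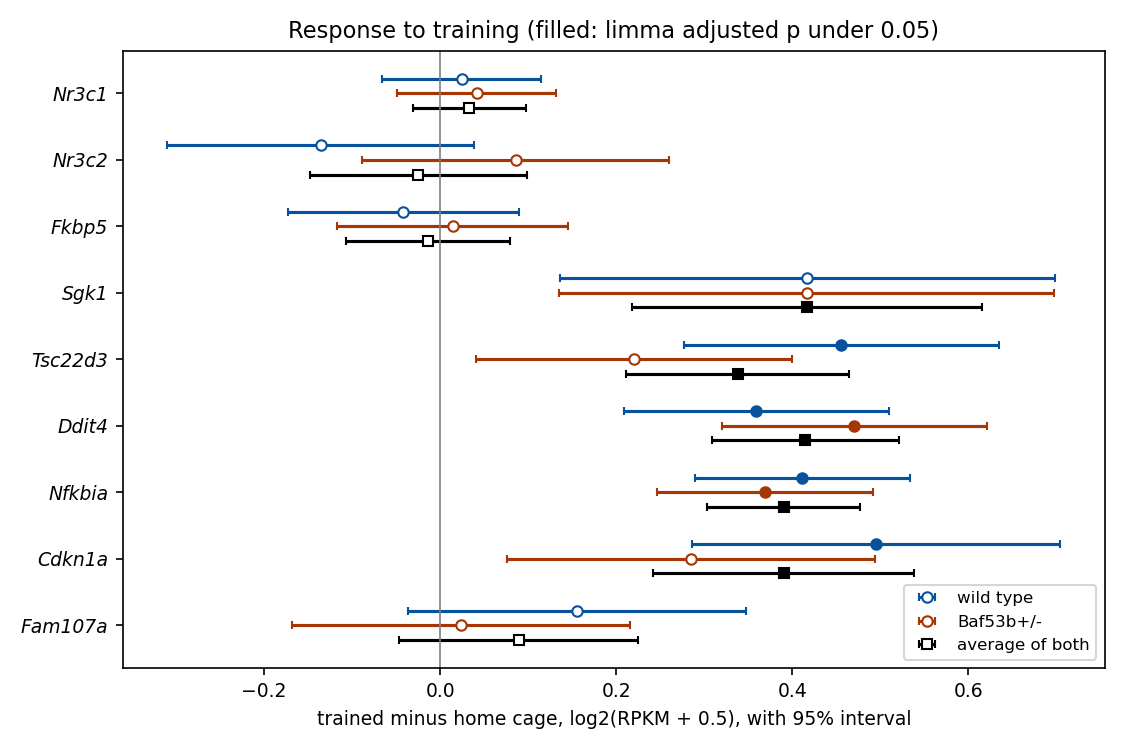
Difference between trained and home cage animals in log2(RPKM + 0.5) (horizontal axis) for each of the 9 genes, in wild type (blue), Baf53b+/- (brown) and their average (black), with bars for the 95% interval and filled symbols where the limma adjusted p was under 0.05. Sgk1, Tsc22d3, Ddit4, Nfkbia and Cdkn1a lie between 0.22 and 0.50, and the other 4 genes have intervals that include 0.

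Fkbp5 and Fam107a, both known to be induced by glucocorticoids in brain, did not pass the test. Fkbp5 (mm9 chr17:28536040-28623057) encodes FKBP51, a co-chaperone that lowers the receptor's affinity for hormone in a feedback loop. It ran from 17.2 to 21.1 RPKM with a median of 18.9 in wild-type home cage animals, and from 16.3 to 21.1 RPKM with a median of 18.4 after training. Heterozygotes ran from 16.0 to 20.0 RPKM (median 18.6) in the home cage and from 16.1 to 19.9 RPKM (median 18.9) after training. Trained and home cage ranges nearly coincided. The difference over genotypes was -0.014 ± 0.045, with a 95% interval from -0.11 to 0.079 and a limma adjusted p of 0.929.

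Fam107a (mm9 chr14:9128792-9142290) ran from 116 to 163 RPKM with a median of 129 in wild-type home cage animals, and from 130 to 173 RPKM with a median of 150 after training. The heterozygous values ran from 126 to 156 RPKM (median 141) in the home cage and from 122 to 167 RPKM (median 144) after training. The groups overlapped, with 1 of 6 trained wild-type animals above all home cage ones. The difference was 0.16 (95% interval -0.037 to 0.35, limma adjusted p = 0.566) in wild type and 0.024 (-0.17 to 0.22, limma adjusted p = 0.954) in heterozygotes.

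The training effects shared no control animals between genotypes, and the difference of the responses was tested directly. None of the 9 genes passed in limma, against 0.00% of all genes. None of the 9 reached an unadjusted p under 0.05, which 309 of all genes (2.49%) did. With a share this low, that does not set the 9 genes apart. Tsc22d3 came nearest, where the heterozygous minus the wild-type response was -0.24 ± 0.12 (95% interval -0.49 to 0.018, limma adjusted p = 0.985). For Nr3c2 this difference was 0.22 ± 0.12 (-0.025 to 0.47, limma adjusted p = 0.985), and 0.081 with the dentate gyrus sum as a covariate. The responses of Sgk1 differed by -0.00027 ± 0.19, and the 95% interval ran from -0.40 to 0.40.

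No difference between genotypes passed the test for any of the 9 genes. In the home cage 0 of 9 were called, against 0.00807% of all genes, and the differences between Baf53b+/- and wild type ran from -0.12 for Nr3c2 to 0.097 for Tsc22d3 (limma adjusted p = 0.999 for both). After training 0 of 9 were called, also against 0.00807% of all genes, and the differences ran from -0.18 for Cdkn1a to 0.10 for Nr3c2 (limma adjusted p = 0.993 for both). Averaged over conditions 0 of 9 were called, against 0.0242% of all genes, with differences from -0.076 for Cdkn1a to 0.053 for Nfkbia (limma adjusted p = 0.999 for both). Single animals moved these values. Without animal 2415 Nr3c2 in the home cage was -0.059, and without animal 2418 Tsc22d3 there was 0.17. After training, Nr3c2 was 0.033 without animal 2421 and Cdkn1a was -0.11 without animal 2414. Over conditions, Cdkn1a was -0.039 without animal 2414 and Nfkbia was 0.029 without animal 2409. None of the 9 genes reached an unadjusted p under 0.05 in limma with all 24 animals in any of these comparisons, or in the exact permutation test within either condition. Of all genes, 3.52% did so in limma in the home cage, 3.69% after training and 4.49% over conditions. With shares this low, 0 of 9 does not set these genes apart. For Nr3c1 the 95% interval averaged over conditions ran from -0.080 to 0.048.

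Other genes tied to the pathway were also compared, in lists chosen with earlier results of these data known. Of 30 other genes known to answer to glucocorticoids, 25 were tested; over both genotypes 6 rose and none fell, against 3.26% and 0.911% of all tested genes. They were Dusp1, a phosphatase that switches off MAP kinases (1.002), Per1, a clock gene (0.43), Nfil3, a transcriptional repressor (0.43), Dusp4 (0.36), Pdk4, a kinase that restrains pyruvate use (0.26), and Errfi1, which restrains the EGF receptor (0.25). Their limma adjusted p ran from 4.84e-09 for Per1 to 0.0132 for Pdk4. Taken by genotype, Per1, Dusp1 and Nfil3 rose in wild type, and Per1, Errfi1, Dusp1, Nfil3 and Dusp4 rose in heterozygotes. Per1, Dusp1, Dusp4, Nfil3 and Errfi1 also belong to the early genes that neuronal activity induces, and hormone and activity cannot be told apart here. The other 19 tested genes did not pass, among them Klf9 at 0.061 (limma adjusted p = 0.536), Zbtb16 at 0.082 (limma adjusted p = 0.439), Mt1 at 0.086 (limma adjusted p = 0.279) and Bcl6 at 0.19 (limma adjusted p = 0.0952).

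Among 15 receptor chaperones and immunophilins, 2 rose over both genotypes and none fell, beside the same 3.26% and 0.911% of all tested genes. These were the heat shock co-chaperone Dnajb1 at 0.39 (limma adjusted p = 7.93e-08) and Fkbp4, which encodes FKBP52, at 0.10 (limma adjusted p = 0.0133). Hsp90aa1, the inducible HSP90, stood at -0.0032. Of 8 genes of steroid metabolism and transport, 4 were tested and none passed in limma, nor at an unadjusted p under 0.05. Hsd11b1, which regenerates corticosterone inside cells, stood at 22.5, 22.5, 21.2 and 22.02 RPKM in wild-type home cage, wild-type trained, heterozygous home cage and heterozygous trained animals. None of 16 receptor coregulators passed in limma, where 3.26% of all genes rose, and 5 had an unadjusted p under 0.05, which 16.8% of all genes had. Neither of the 2 tested genes of the corticotropin-releasing hormone system passed. Of 105 tested genes in 11 marker lists of cell types and hippocampal fields, 1 rose over both genotypes and none fell, against 3.26% and 0.911% of all genes. It was the endothelial glucose transporter Slc2a1 at 0.18 (limma adjusted p = 0.00167). The summed RPKM of 16 endothelial and mural markers ran from 125 to 154 in wild-type home cage, 132 to 153 in wild-type trained, 132 to 156 in heterozygous home cage and 149 to 162 in heterozygous trained animals, with no marker at 0 in all libraries. In the training average, 5 of the 16 had an unadjusted p under 0.05, beside 16.8% of all genes. All 12 oligodendrocyte markers had a positive difference with none at an unadjusted p under 0.05, while 6534 of all 12399 genes were positive. Differences were also positive for 13 of 16 endothelial and mural and 11 of 13 astrocyte markers. Fewer were positive among CA3 (0 of 7), CA2 (1 of 6), neuron (2 of 9) and choroid plexus markers (3 of 14). The average can hide opposite genotypes. Choroid plexus markers were positive for 11 of 14 in wild type and 0 of 14 in heterozygotes, and dentate gyrus markers for 0 of 9 and 9 of 9. Markers of 1 list are not independent of each other, so these counts describe the lists and are no test. The oligodendrocyte sum ran from 1310 to 2948 RPKM within wild-type home cage animals alone. The sum of 9 neuron markers ran from 3679 to 4157, 3515 to 3875, 3775 to 4071 and 3584 to 3903 RPKM in the same order of groups, so its trained ranges lay lower while overlapping the home cage ones. The part of these cell types in the training response was not tested.

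**Figure D3:**
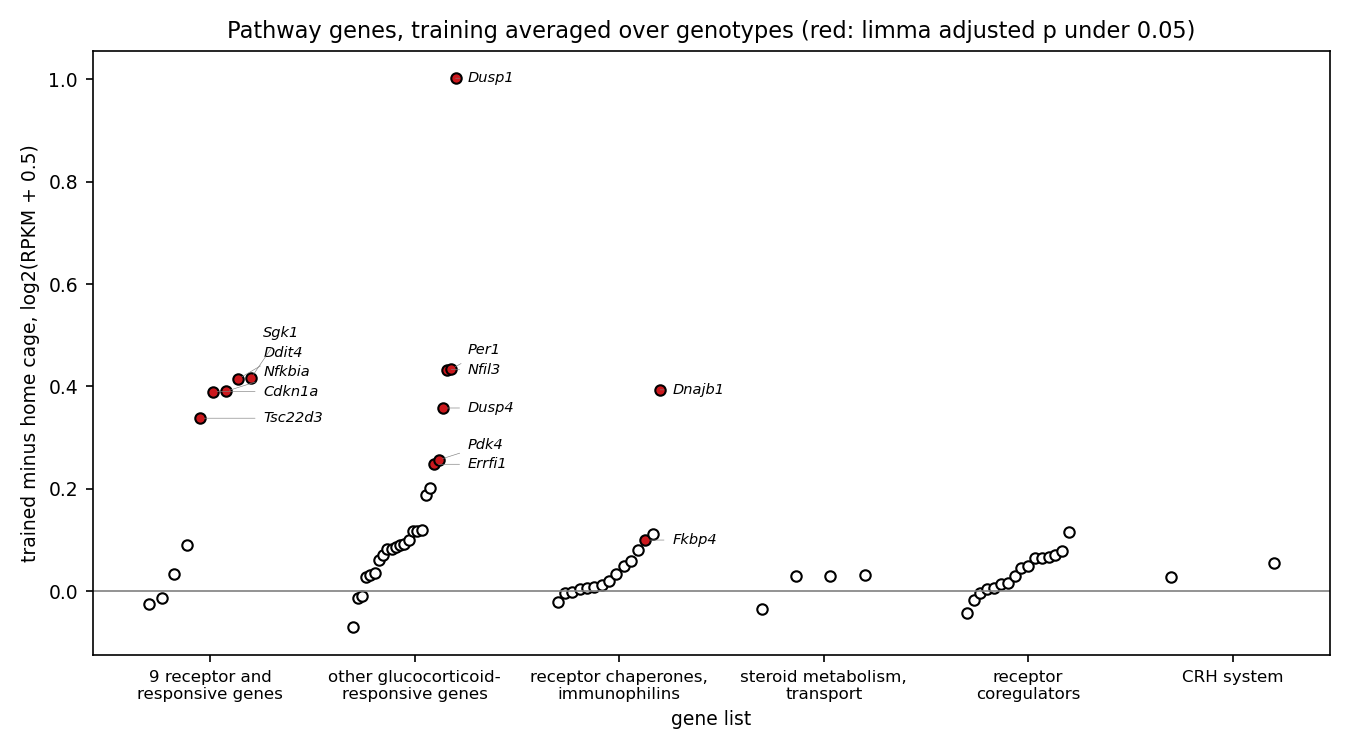
Difference between trained and home cage animals averaged over genotypes, in log2(RPKM + 0.5) (vertical axis), for tested genes in 6 lists (horizontal axis), with red points and names where the limma adjusted p was under 0.05. Named genes gather among the 9 genes and the other glucocorticoid-responsive genes, where Dusp1 reaches 1.002, and none is named among metabolism, coregulator or CRH genes. The lists were chosen with earlier results of these data known.

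Animals of the same group also varied together. With the 4 group means removed, correlations over the 24 animals were computed for all 36 pairs, with permutation p adjusted over the pairs. The points share library, dissection, depth and sex, which was not removed. Pearson's r passed for 11 pairs, 10 of them positive, and 4 passed also by Spearman's rho. The share of passing pairs among all tested genes was not counted. These counts therefore describe the chosen genes and do not set them apart from other genes. Sgk1 varied with Fam107a (r = 0.65, adjusted permutation p = 0.00936; rho = 0.66, adjusted permutation p = 0.0107), and r was 0.59 without the 2 animals farthest from the median of Sgk1. Ddit4 varied with Nfkbia (r = 0.64, adjusted permutation p = 0.00828; rho = 0.78, adjusted permutation p = 0.00072; 0.65 without the 2 farthest), and Nfkbia varied with Fam107a (r = 0.61, adjusted permutation p = 0.0199; rho = 0.64, adjusted permutation p = 0.0293; 0.54 without the 2 farthest). Nr3c2 ran against Tsc22d3 (r = -0.61, adjusted permutation p = 0.0199; rho = -0.68, adjusted permutation p = 0.0107; -0.69 without the 2 farthest). With sex removed as well, a choice made after seeing the values, r was 0.46 for Sgk1 with Fam107a, 0.67 for Ddit4 with Nfkbia, 0.51 for Nfkbia with Fam107a and -0.52 for Nr3c2 with Tsc22d3. The pair of receptors, Nr3c1 and Nr3c2, had r = 0.30 (adjusted permutation p = 0.271; rho = 0.18, adjusted permutation p = 0.516; 0.16 without the 2 farthest).

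**Figure D4:**
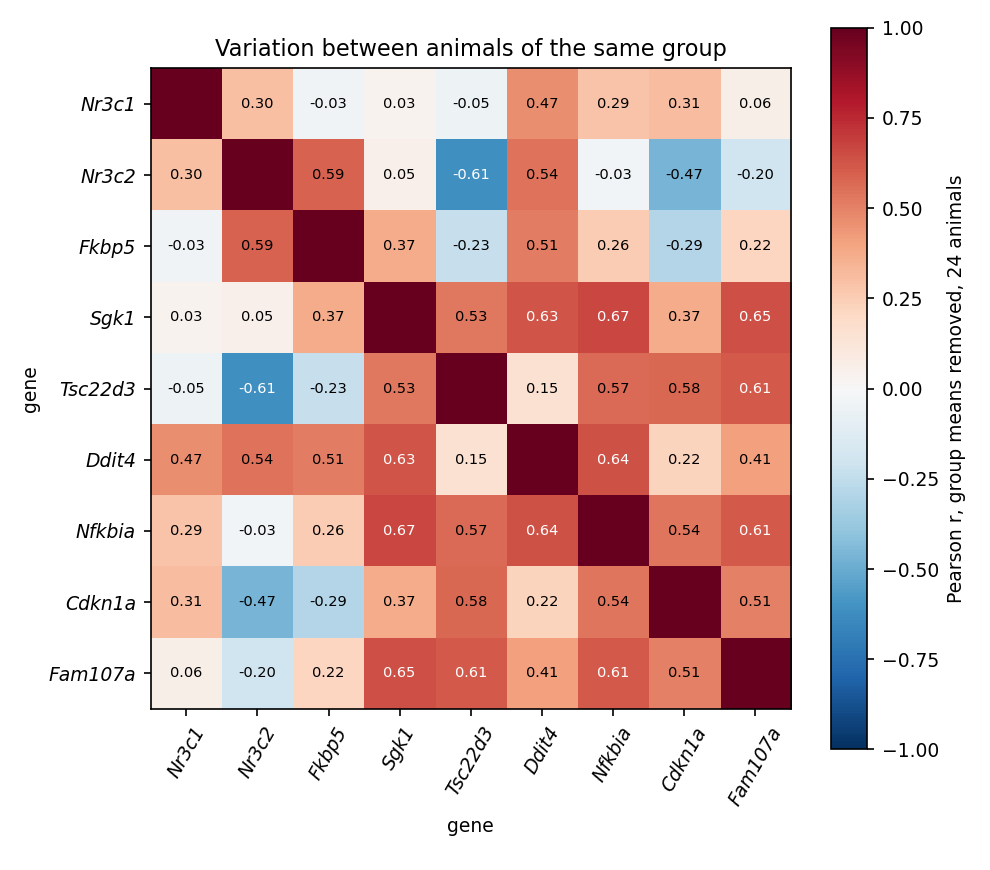
Pearson's r between each pair of the 9 genes (both axes) over 24 animals after removing the 4 group means, with colour from -1 to 1. Sgk1, Tsc22d3, Nfkbia and Fam107a form a block of positive values from 0.53 to 0.67, and Nr3c2 with Tsc22d3 is the lowest at -0.61.

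The dentate gyrus marker sum was compared with each of the 9 genes in the same way, after the shared low animals had been seen. Those animals are part of the comparison, so the values for Nr3c2 and Fkbp5 are no independent evidence of a relation. Nr3c2 followed the sum most closely, with r = 0.85 (adjusted permutation p = 0.00054 over 9 genes), rho = 0.75 (adjusted permutation p = 0.00207) and r = 0.75 without the 2 animals farthest from its median. Ddit4 had r = 0.69 (adjusted permutation p = 0.00804), rho = 0.64 (adjusted permutation p = 0.0131) and r = 0.40 without those 2 animals, so its relation leans on them. Fkbp5 had r = 0.67 (adjusted permutation p = 0.00356) and rho = 0.48 (adjusted permutation p = 0.0758), with r = 0.51 without them. Tsc22d3 ran against the sum without passing, with r = -0.43 (adjusted permutation p = 0.0529) and rho = -0.40 (adjusted permutation p = 0.164). The part of the dentate gyrus sum in the relation of Nr3c2 to Tsc22d3 was not tested. With this sum as a covariate the training calls among the 9 genes numbered 4, 2 and 5 as before, while those over all genes went from 134, 128 and 517 to 170, 124 and 687. In that fit Ddit4 differed by 0.40 in wild type and 0.41 in heterozygotes.

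The genes most like each of the 9 among all tested genes, by Pearson's r over the 24 animals with group means removed, were Limch1 (0.82) for Nr3c1, Ippk (0.93) for Nr3c2, Dapk1 (0.86) for Fkbp5 and Plekhf1 (0.78) for Sgk1. For Tsc22d3 the nearest was Aldoc (0.78), and Dusp1 was also among its nearest 3 genes (0.77). For Ddit4 it was Ppp1r16b (0.87), for Nfkbia Gfpt2 (0.75), for Cdkn1a Sepp1 (0.80) and for Fam107a Eif2s3x (0.77). These values describe the nearest of 12399 tested genes and carry no test.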

How the data were processed

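RNA-seq of dorsal hippocampus from 24 animals was used. Per the labels' protocols, RNA came from RNeasy columns, libraries from the TruSeq v2 kit, which keeps no strand, and single-end reads of 50 cycles from a HiSeq instrument; libraries were pooled into 4 multiplexes, and since the sources used here do not say which pool held which animal, a batch term could not be fitted. The authors deposited RPKM values with mm9 positions, 1 column per animal; CASAVA 1.8.2 and Bowtie 0.12.8 are named per the submitters' processing notes. Annotation and counting rule are not given in the sources; without strand, reads of genes that overlap or run antisense stay unresolved. Whether animals of a group came from separate litters is not stated.

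The log2 of RPKM plus a pseudocount of 0.5 was tested for the 12399 genes averaging 1 RPKM or more, which hold 99.5% of the RPKM, with limma 3.58.1 in R 4.3.3. The 4 groups shared 1 model with trend and robust empirical Bayes settings, and genes were called at p under 0.05 after Benjamini-Hochberg adjustment over all tested genes. Folds on this scale understate changes of low genes. Two-sided exact permutation tests over 924 splits of 12 animals can give no p below 0.00216. Correlations used 100000 permutations within groups. Depth was recovered from RPKM steps of 974 single-exon genes, where 47.0% to 55.3% of values were whole reads to within 0.05. For each library the median share over candidate depths was also taken, and the largest such median was 8.42%. A median does not show how close rival depths came to the chosen one. The fit was checked on simulated data. The named genes are the 9 chosen genes, the called genes of the fixed lists with a few uncalled ones, and the nearest genes by r. The 9 genes and the lists were chosen with earlier results of these data known. Alternatives covered pseudocount, filter, scaling, model settings, covariates and left-out animals.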

Additional observations from a re-analysis of the deposited data

Results flagged for a closer look

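In 36 sets of 6 animals (9 genes in 4 groups), 2 values stood apart from the other 5 of their group by Dixon's test, which by chance picks out about 1 group in 20. Both came from animal 2418 of the wild-type home cage group. Tsc22d3 was at 17.8 RPKM there, against a group median of 12.9, and Nfkbia was at 11.5 RPKM, against a median of 10.3. The gap to the next animal was 0.68 of the group's range for Tsc22d3 and 0.64 for Nfkbia, with a critical value of 0.625. The same animal was highest of its group for 5 of the 9 genes and lowest for Nr3c2 and Fkbp5, and its dentate gyrus marker sum was the lowest of its group at 128 RPKM. The part of that in the result was not tested.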

How the results depend on the processing

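Leaving out each of the 24 animals in turn changed none of the 11 calls, with a highest limma adjusted p of 0.0385, and the calls numbered 4, 2 and 5 in every such fit. Of 459 values under other settings, 445 kept direction and side of the threshold, and no called value reversed. Among the rest, 5 lost a call and 5 reversed. The other 4 passed only at the unadjusted p under 0.05 of exact permutation tests, which are among the 459. None of these 4 is a gain at the adjusted threshold. Many of the 459 values belong to uncalled results far from the threshold, so the 445 say little about how firm the 11 calls are. With the 6 choroid-rich libraries left out, calls in wild type fell from 4 to 1, a choice made after seeing the data. The exact permutation tests, with all 24 animals, gave 5 of the 9 genes in each genotype at an unadjusted p under 0.05. Limma had 4 calls in wild type and 2 in heterozygotes. Of all 12399 genes, 1244 in wild type and 1380 in heterozygotes passed that unadjusted threshold. Tsc22d3 in wild type had a limma adjusted p of 0.0695 when only the groups compared were fitted. Cdkn1a was not tested with a mean of at least 5 RPKM. The reversed values, in uncalled genes, were Fkbp5 in heterozygotes at -0.014 with array weights and -0.033 with the dentate gyrus sum, and Fam107a in heterozygotes at -0.010 with array weights, -0.051 with sex as a covariate and -0.031 without the choroid-rich libraries. With 1 animal left out, the ranges were -0.025 to 0.054 for Fkbp5 and -0.022 to 0.069 for Fam107a in heterozygotes, and -0.034 to 0.0062 for Fkbp5 and -0.054 to 0.011 for Nr3c2 over genotypes. The cause was not tested. Calls over all genes, 134 in wild type, 128 in heterozygotes and 517 over both, were 65, 52 and 262 without the choroid-rich libraries, 83, 84 and 339 with the mean of at least 5 RPKM, and 75 and 84 with only the groups compared. No paired analysis was possible because the replicate numbers are animal numbers that no groups share. Depth limits Cdkn1a most, at 69.2 reads per kilobase in the shallowest case.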

Other observations

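The nearest genes to Fam107a included Eif2s3x and Ddx3x, X-linked genes that escape inactivation, so the 9 genes were also compared between 10 females and 14 males in a fit with sex beside the 4 groups. This fit was chosen after the values were seen. The means over each sex are pooled over groups that are not balanced, with 6 of 10 females and 6 of 14 males trained, whereas the log2 differences are fitted beside the groups. Fam107a averaged 155 RPKM in females and 134 RPKM in males, a log2 difference of 0.22 ± 0.05 with a 95% interval from 0.12 to 0.33. Its limma p was 0.000276 before and 0.228 after adjustment over all genes. It did not pass the correction, which 0.0887% of all genes did. In both trained groups the 3 females lay above the 3 males, from 152 to 173 RPKM against 130 to 149 RPKM in wild type and from 149 to 167 RPKM against 122 to 139 RPKM in heterozygotes. In wild-type home cage animals the sexes overlapped, from 118 to 163 RPKM in females and from 116 to 136 RPKM in males. In heterozygous home cage animals the only female, at 149 RPKM, lay within the males' range of 126 to 156 RPKM. The share of all genes that separate 3 females from 3 males was not counted. Since the sexes were compared because of the genes nearest to Fam107a in these same data, the separation is no independent evidence of a sex difference. Sgk1 averaged 20.0 RPKM in females and 15.8 RPKM in males (0.25, limma adjusted p = 0.883), and Tsc22d3 17.3 and 15.04 RPKM (0.16, limma adjusted p = 0.919).

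Some animals ranked alike across the genes. Animal 2415 of the heterozygous home cage group was lowest of its group for 7 of the 9 genes, and its dentate gyrus marker sum of 84.9 RPKM was the lowest of the 24. Animal 2436 of the wild-type trained group was highest of its group for 6 genes, and animal 2409 of the heterozygous trained group, 1 of the choroid-rich libraries, for 5.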
